A study of Homo sapiens with 6 samples.

Results

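The 10 complement genes described here are the components C2, C3, CFB, CFD and CFP, the anaphylatoxin receptors C3AR1 and C5AR1, and the regulators SERPING1, CD55 and CD59. They were taken by symbol from the deposited gene table, where each of the 10 had 1 row among 35009 genes. The rule names symbols and no measured value, but the list was chosen with earlier results of these data known. Counts of called members below are thus not those of a blind list. The cells were THP-1 macrophages, made from an established line of human leukaemic monocytes, and were treated with oxidised low-density lipoprotein (ox-LDL), the lipoprotein that turns artery-wall macrophages into foam cells. There were 6 libraries of polyadenylated RNA, 3 of cells with ox-LDL alone (controls) and 3 of cells given ox-LDL with MCT4 deficiency (siMCT4). MCT4, the product of SLC16A3, exports lactate and protons. Both groups received ox-LDL, so neither shows complement expression without it. The labels give neither the agent that turned the cells into macrophages nor a non-targeting siRNA for the controls. Loss of MCT4 and the siRNA treatment itself thus cannot be told apart. Whether libraries within a group are separate cultures is not in the labels, and each p-value then reflects the spread among these samples alone, which may be technical. In bulk RNA, fewer cells expressing a gene and less RNA per cell cannot be told apart.

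Complement is a cascade of plasma and cell-surface proteins. The classical pathway starts with C1, whose proteases C1r and C1s cleave C4 and C2. The alternative pathway amplifies C3 cleavage through factor B, factor D and properdin. Both end in cleavage of C3 and C5, which releases the anaphylatoxins C3a and C5a and can lead to a membrane attack complex. Host cells carry CD55, CD46 and CD59 to stop these steps on their own surface. The liver makes most plasma complement, and macrophages make components locally and respond to C3a and C5a.

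Total counts ran from 61880619 to 69181938 per library. The targeted gene SLC16A3 had 6428 to 7708 control counts against 691 to 949 in siMCT4 (log2 change -3.20, adjusted p = 1.12e-06). All 10 macrophage and myeloid markers examined were present, with summed levels of 6485 to 6654 CPM (counts scaled to library size with TMM factors) in controls and 4799 to 4954 CPM in siMCT4. Hepatocyte markers, which belong to the main source of plasma complement, summed to 24.7 to 29.3 CPM in controls and 19.3 to 24.3 CPM in siMCT4. APOA1 was the largest part, at 16.9 to 21.9 CPM in controls and 13.5 to 16.2 CPM in siMCT4. SERPINA1 and TF were also above 1 CPM. ALB had at most 121 counts in a library. It stood at 0.25 to 0.681 CPM in controls and at 0.799, 1.74 and 0.578 CPM in siMCT4 libraries 1, 2 and 3. Fibroblast and smooth muscle markers, 5 of 7 of them at 1 CPM or more in a group, summed to 8.04 to 10.5 CPM in controls and to 39.1, 35.1 and 10.5 CPM in siMCT4 libraries 1, 2 and 3, where the collagen gene COL1A2 had 1892, 1782 and 0 counts against 0 in every control. Without COL1A2 the sum was 8.04 to 10.5 CPM in controls and 9.43, 9.48 and 10.5 CPM in siMCT4. COL1A1 was at 2.85, 2.52 and 6.25 CPM in siMCT4 against 4.43 to 6.32 CPM in controls. PDGFRB went the other way, at 2.66, 3.37 and 0.818 CPM in siMCT4 against 0.808 to 1.81 CPM in controls. Endothelial markers were led by PECAM1, which myeloid cells also carry, and summed to 530 to 543 and 338 to 348 CPM. T and B lymphocyte markers were scarce but higher in siMCT4 (2.68 to 3.01 CPM in sum), a difference that lay in CD79A, at 0.25 to 0.412 CPM in controls and 2.03 to 2.59 CPM in siMCT4. GC-rich genes were also uneven. Among 410 genes with at least 64% GC and a mean log2 CPM above 2, siMCT4 libraries 1, 2 and 3 had median log2 ratios of -1.02, -1.11 and -0.20 to the control mean. SLC16A3, at 65.6% GC, is above that GC limit. Its log2 ratios in the same libraries were -3.32, -3.29 and -3.01, and the part of the GC shift in them was not tested.

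CFB rose by several fold beside its chromosome 6 neighbour C2, while CD55 fell. Promoter activity was not measured, and the promoter windows below are given as sequence only. The 250 bases before the RefSeq start of 3 members are shown, as one member with motif matches, one that rose without them and one that fell. They come from RefSeq on GRCh38.p14, 5′ to 3′ on the gene's strand, for CFB (chr6:31945845-31946094, + strand), C3AR1 (chr12:8066360-8066609, - strand) and CD55 (chr1:207321428-207321677, + strand). The gene models of the deposited table start elsewhere for CFB and CD55. The CFB model starts at 31945650, so the whole CFB window lies inside it. The CD55 model starts at 207321519, within the CD55 window. Capitals mark matches to GAAANNGAAA, a core of the interferon-stimulated response element, or to TTCNNNGAA, a core of the gamma-activated site, on either strand.
CFB: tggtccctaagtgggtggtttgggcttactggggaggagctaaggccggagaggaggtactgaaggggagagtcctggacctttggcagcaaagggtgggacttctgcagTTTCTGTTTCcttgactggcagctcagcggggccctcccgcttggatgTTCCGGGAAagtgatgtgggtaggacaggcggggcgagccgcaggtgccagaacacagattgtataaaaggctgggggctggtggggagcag
C3AR1: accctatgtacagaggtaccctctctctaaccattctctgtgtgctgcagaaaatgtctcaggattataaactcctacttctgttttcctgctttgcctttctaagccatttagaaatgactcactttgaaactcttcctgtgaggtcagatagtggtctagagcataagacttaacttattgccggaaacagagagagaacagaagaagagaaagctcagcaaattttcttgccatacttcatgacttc
CD55: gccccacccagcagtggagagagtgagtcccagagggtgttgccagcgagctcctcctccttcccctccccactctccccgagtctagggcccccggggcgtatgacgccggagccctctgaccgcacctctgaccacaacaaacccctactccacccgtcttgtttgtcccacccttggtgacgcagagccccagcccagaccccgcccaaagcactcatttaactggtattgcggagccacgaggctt

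The CFB window held 1 match to the first motif, starting 140 bases before the RefSeq start, and 1 to the second, starting 92 bases before it. The first motif occurred in 3.02% and the second in 6.57% of 35116 such windows. The table held 13 windows for 8 members, and C3 and SERPING1 were without an entry. The remaining matches were to the second motif in 2 overlapping CD59 windows, which share 1 site. The windows of C2, which rose beside CFB, held none. No match says only that these letters are not in that window, and whether any match is used in these cells was not measured.

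Of the 10 members, all of which passed the filter on low counts, 5 were higher in siMCT4 (SERPING1, CFB, C2, C3AR1 and C3), 3 were lower (CFD, CD55 and C5AR1) and 2, CFP and CD59, did not pass. Calls needed an adjusted p under 0.05. Unless a sentence names another tool, adjusted p-values come from the quasi-likelihood test of edgeR, adjusted by Benjamini-Hochberg over all 19944 genes tested. Of all genes tested 41.4% were called, 20.6% higher and 20.8% lower, so a large share of called genes is the background here. CPM values of the groups did not overlap for 8 of 10 members, against 55% of all genes tested. The median log2 change was 0.34 over the members and -0.01 over all genes. Of all calls 49.8% were higher, but 68.1% on FPKM rescaled to TPM and 61.1% on unfiltered log2(FPKM + 1) with limma.

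**Figure D1:**
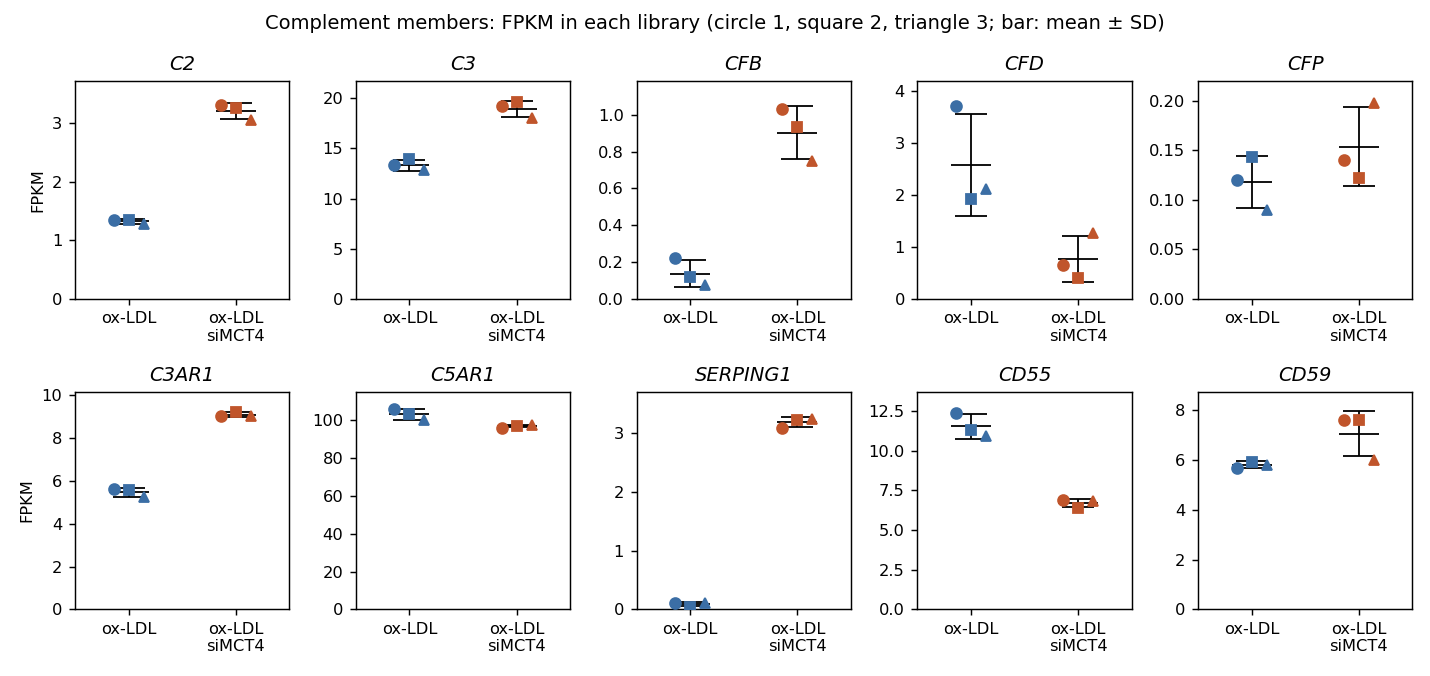
FPKM (deposited values per gene length and library size, y axes from 0 with a scale of their own per gene) of the 10 members in each of 6 libraries; points are libraries 1 (circle), 2 (square) and 3 (triangle) of each group, and bars the mean ± SD. SERPING1 stands at 0.0447 to 0.109 in controls and 3.09 to 3.24 in siMCT4, while the groups overlap for CFP and nearly meet for CD59, whose siMCT4 library 3 is at 6.01.

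Per length, the members differed widely in abundance in controls. C5AR1 was the most abundant at 103 ± 3.08 FPKM (SD, n = 3), followed by C3 at 13.4 ± 0.556, CD55 at 11.6 ± 0.788, CD59 at 5.81 ± 0.136, C3AR1 at 5.48 ± 0.207, CFD at 2.58 ± 0.988 and C2 at 1.32 ± 0.0446 FPKM. CFB (0.137 ± 0.0755), CFP (0.118 ± 0.0267) and SERPING1 (0.0859 ± 0.0358) were lowest, and in this order CFB overlapped CFP and CFP overlapped SERPING1. In siMCT4 the order of FPKM levels was C5AR1, C3, C3AR1, CD59, CD55, C2, SERPING1, CFB, CFD and CFP. There CD59 and CD55, C2 and SERPING1, and CFB and CFD overlapped as neighbours.

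Of the components of the C3 convertases, C2, CFB and C3 rose. C2 (ENSG00000166278, chromosome 6, 31897785 to 31945673, + strand), which supplies the protease of the classical convertase, stood at 1.34, 1.35 and 1.27 FPKM in control libraries 1, 2 and 3 and at 3.31, 3.25 and 3.05 FPKM in siMCT4 libraries 1, 2 and 3. Every siMCT4 library was above every control, and the siMCT4 libraries differed from each other by far less than from the controls. In the test this gave a log2 change of 1.16 (SE 0.0754, adjusted p = 2.61e-05), or 2.24-fold.

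CFB (ENSG00000243649, chromosome 6, 31945650 to 31952084, + strand) encodes factor B, the corresponding protease of the alternative convertase. It had 93, 48 and 31 control counts, or 0.22, 0.116 and 0.0734 FPKM, against 370, 361 and 300 counts in siMCT4, or 1.03, 0.931 and 0.747 FPKM. The groups did not overlap, although CFB was scarce and the controls were spread over a wide range. CFB rose by a log2 change of 2.53 (SE 0.37, adjusted p = 0.00136), or 5.76-fold with a 95% interval of 1.66 to 3.40 on the log2 scale. The gene models of C2 and CFB overlap by 24 bases on the same strand, and another model, ENSG00000244255, runs through both. That model had 0, 63 and 23 control counts against 0, 95 and 0 in siMCT4, so reads of this locus may be split unevenly between models. On the opposite strand, C2 overlaps ZBTB12 by 2474 bases (41 to 147 counts) and C2-AS1 by 7251 bases (at most 8 counts).

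C3 (ENSG00000125730, chromosome 19, 6677704 to 6730562, - strand), the central component on which all pathways converge, was already abundant in controls at 13.3, 13.9 and 12.8 FPKM. It stood at 19.2, 19.6 and 18.0 FPKM in siMCT4, where each library exceeded the highest control. C3 rose with a log2 change of 0.39 (SE 0.048, adjusted p = 0.000543), or 1.31-fold. Its model overlaps that of GPR108 by 649 bases on the same strand, and GPR108 had a log2 change of -0.24 (adjusted p = 0.0102).

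CFD and CFP, the other alternative-pathway components, did not rise with CFB. CFD (ENSG00000197766, chromosome 19, 859453 to 863641, + strand), the factor D protease that activates factor B, stood at 3.71, 1.91 and 2.12 FPKM in controls and 0.655, 0.391 and 1.26 FPKM in siMCT4. The groups did not overlap, but control library 1 was high within its group and siMCT4 library 3 high within its own. The log2 change was -1.84 (SE 0.45, adjusted p = 0.014), a 3.58-fold fall. With a GC content of 68.6%, CFD is above the GC limit of the GC-rich genes described above, though too scarce to be counted among them. Its log2 ratios to the control mean were -2.09, -2.79 and -1.13 in siMCT4 libraries 1, 2 and 3. After a correction for GC content its log2 change was -0.93 (adjusted p = 0.0266), and with siMCT4 library 3 as the sole siMCT4 library it was -1.11. The call was lost in 3 of 19 alternatives, among them the fit with siMCT4 library 3 as the sole siMCT4 library. Among the fits that left out a single library, it was lost without control replicate 1 (-1.47, adjusted p = 0.0566) and without siMCT4 replicate 1 (-1.71, adjusted p = 0.056).

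CFP (ENSG00000126759, chromosome X, 47623172 to 47630305, - strand) encodes properdin, which stabilises the alternative convertase. It had 52, 58 and 37 control counts against 54, 51 and 83 in siMCT4, with overlapping groups. The log2 change was 0.28 with a 95% interval of -0.42 to 0.97 (adjusted p = 0.498). At this depth neither a rise of the size seen for C3 nor no change lay outside that interval.

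The receptors for the anaphylatoxins moved apart. C3AR1 (ENSG00000171860, chromosome 12, 8056844 to 8066359, - strand), the G protein-coupled receptor for C3a, stood at 5.62, 5.57 and 5.24 FPKM in controls and 9.05, 9.21 and 9.03 FPKM in siMCT4. The siMCT4 values were tightly grouped and all above the controls, with a log2 change of 0.62 (SE 0.0603, adjusted p = 0.000178), or 1.54-fold. C5AR1 (ENSG00000197405, chromosome 19, 47290023 to 47320186, + strand), the main C5a receptor, stood at 106, 103 and 100 FPKM in controls and 96.1, 97.1 and 97.2 FPKM in siMCT4.

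The C5AR1 groups did not overlap, but the difference was small, with a log2 change of -0.20 (SE 0.0391, adjusted p = 0.00498), or a 1.15-fold fall. The call was kept with RLE scaling (-0.19, adjusted p = 0.00989) and upper quartile scaling (-0.17, adjusted p = 0.00897). It was lost in 7 of 19 alternatives, among them log2(FPKM + 1) with limma (-0.09, adjusted p = 0.0973) and GC correction (-0.14, adjusted p = 0.0532). On TPM the log2 change of C5AR1 was -0.000434 (adjusted p = 0.995), on a scale where the median of all genes was shifted by 0.138.

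A ratio of 2 genes within a library does not depend on library scaling. The log2 ratio of C3AR1 to C5AR1 FPKM was -4.24, -4.21 and -4.26 in controls and -3.41, -3.40 and -3.43 in siMCT4. C5AR1 thus exceeded C3AR1 by 18.9-fold in controls and by 10.6-fold in siMCT4. The difference of 0.83 on the log2 scale was many times the SD within a group (0.0215 and 0.0144, n = 3), and a two-sided exact permutation over the libraries returned p = 0.1, which 3 against 3 cannot go below (adjusted p = 0.1 over the 4 pairs examined).

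The other 3 pairs gave the same exact permutation p = 0.1 with ratios that did not overlap between groups. The log2 ratio of CFB to C2 was -3.42 ± 0.762 in controls and -1.84 ± 0.178 in siMCT4 (SD, n = 3). C3 exceeded CFB by 108-fold in controls and by 21.1-fold in siMCT4. The log2 ratio of CD55 to CD59 was 0.99 ± 0.125 and -0.07 ± 0.221, so the surface regulator that was more abundant in controls was level with the other in siMCT4. These ratios show unequal change of the genes in a pair and not which of them changed.

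SERPING1 had the largest change of the members. SERPING1 (ENSG00000149131, chromosome 11, 57597387 to 57619171, + strand) encodes C1 inhibitor, the serpin that inactivates C1r and C1s. It had 61, 23 and 55 control counts, or 0.109, 0.0447 and 0.104 FPKM, against 1479, 1674 and 1730 counts in siMCT4, or 3.09, 3.22 and 3.24 FPKM. The controls were near the bottom of the members and the siMCT4 libraries were alike, with log2 ratios of 5.02, 5.08 and 5.10 to the control mean. The log2 change was 5.06 (SE 0.306, adjusted p = 1.82e-05), or 33.3-fold, with a 95% interval of 4.34 to 5.78 set mainly by the few control counts. On the log2(FPKM + 1) scale, which compresses low values, the change was 1.95.

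**Figure D2:**
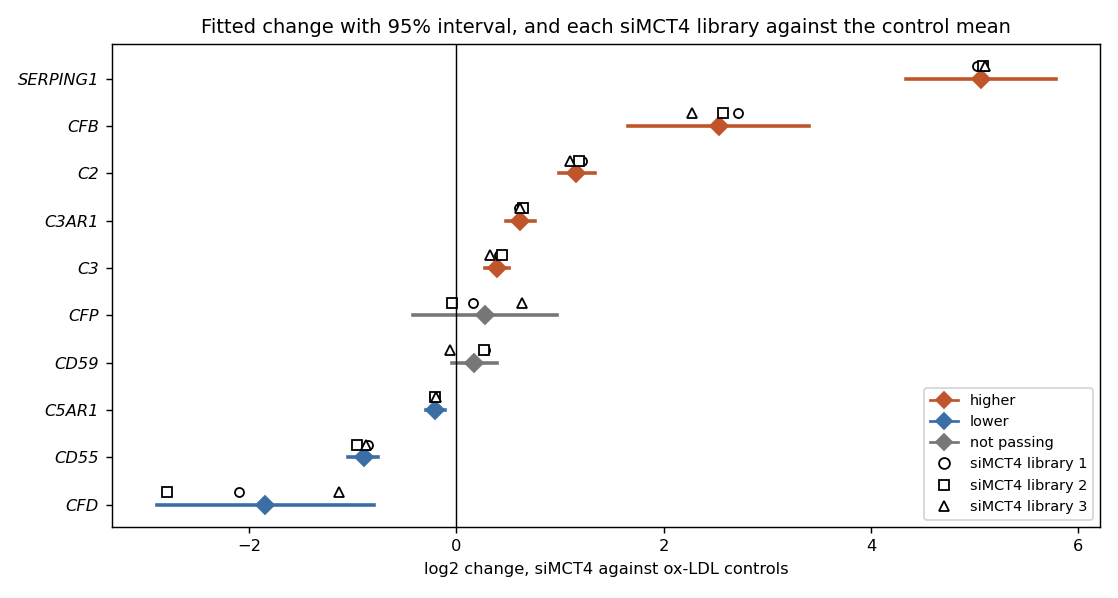
Log2 change of siMCT4 against ox-LDL controls (x axis) for the 10 members; diamonds and bars are the edgeR estimate with its 95% interval, and open symbols the log2 ratio of each siMCT4 library to the control mean. The 3 open symbols sit close together for SERPING1, C2, C3AR1, C3, C5AR1 and CD55 and are spread out for CFD (-2.79 to -1.13) and CFP (-0.04 to 0.63).

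Of the membrane-anchored regulators, CD55 fell and CD59 did not pass. CD55 (ENSG00000196352, chromosome 1, 207321519 to 207373246, + strand), or decay-accelerating factor, speeds the breakdown of C3 convertases on the cell's own surface. It stood at 12.4, 11.3 and 10.9 FPKM in controls and 6.92, 6.39 and 6.80 FPKM in siMCT4, with every siMCT4 library well below the lowest control. CD55 had a log2 change of -0.89 (SE 0.0631, adjusted p = 3.84e-05), a 1.86-fold fall. Its log2 ratios in siMCT4 libraries 1, 2 and 3 were -0.85, -0.96 and -0.87, and its GC content of 42.1% is low.

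CD59 (ENSG00000085063, chromosome 11, 33703010 to 33736425, - strand), which blocks assembly of the membrane attack complex, stood at 5.67, 5.94 and 5.82 FPKM in controls and 7.60, 7.59 and 6.01 FPKM in siMCT4. Libraries 1 and 2 of siMCT4 were above all controls, and library 3 lay just above the highest control on FPKM but below every control on CPM (65.9 against 67.0 to 69.4). The log2 change was 0.17 with a 95% interval of -0.04 to 0.39 (adjusted p = 0.176). Without siMCT4 replicate 3 it was 0.30 (adjusted p = 0.000638), and with library 3 as the sole siMCT4 library it was -0.04. CD59 also passed as higher on TPM (0.35, adjusted p = 0.0219).

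The rest of the complement system was followed in a list of 52 further symbols, of which 36 had a row and 26 passed the filter on low counts; the other 16 were not analysed here. Among the 26 tested, 5 rose, 9 fell and 12 missed the threshold, a called share of 14 of 26 beside the 41.4% of all genes, with a median log2 change of 0.04. The plot of the called genes by role shows higher calls for C1R, C1S, C1RL, PTX3 and the regulator VTN. Lower calls lay among receptors and other regulators, and in C5. These role groups are described by their counts and were not tested against other genes.

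**Figure D3:**
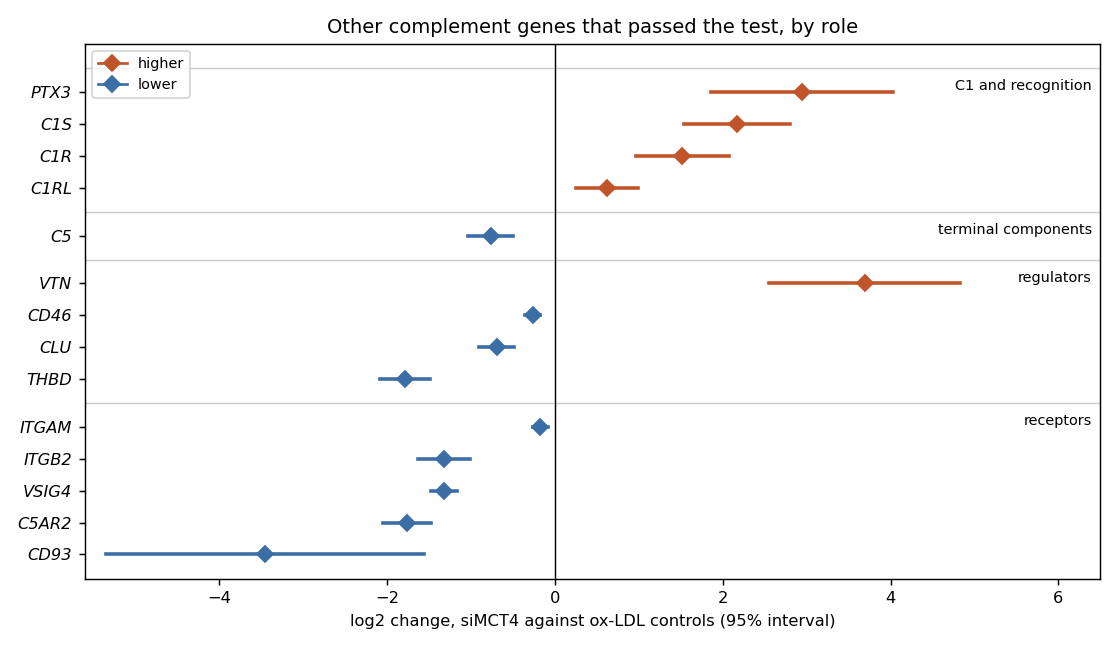
Log2 change of siMCT4 against ox-LDL controls (x axis, with 95% intervals) for the 14 further complement genes that passed the test, grouped by role. The 4 C1 and recognition genes lie to the right of 0 and the 5 receptors to the left, and the widest interval is that of the scarce gene CD93 (-5.34 to -1.56).

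C1 and recognition genes rose in 4 of 6 tested cases and fell in 0, beside 20.6% and 20.8% of all genes tested. C1R and C1S encode the proteases that C1 inhibitor blocks. C1R had 177, 178 and 195 control counts against 666, 590 and 395 in siMCT4 (log2 change 1.52, SE 0.237, adjusted p = 0.00182), and C1S had 84, 129 and 151 against 636, 604 and 483 (2.17, SE 0.269, adjusted p = 0.000597). Neither overlapped between groups, and both were lowest in library 3 among the siMCT4 libraries. SERPING1 was not lower there.

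The related protease gene C1RL rose by 0.62 (adjusted p = 0.0167), and its model overlaps that of C1R by 2907 bases on the same strand. C1RL lost its call in 2 of 19 alternatives, among them the fit without siMCT4 replicate 1 (0.58, adjusted p = 0.0542). With library 3 as the sole siMCT4 library, where the call was also lost, the log2 change of C1RL was 0.47. PTX3, a pentraxin that binds C1q, had 13, 10 and 27 control counts against 129, 190 and 90 in siMCT4 (2.95, adjusted p = 0.00192), and 2.30 with library 3 as the sole siMCT4 library. COL1A2 was likewise higher in siMCT4 libraries 1 and 2 than in library 3. So were PDGFRB (2.66 and 3.37 against 0.818 CPM), PDGFRA (2.6 and 2.1 against 1.83 CPM) and MYH11 (0.72 and 1.09 against 0.691 CPM). COL1A1 (2.85 and 2.52 against 6.25 CPM) and ACTA2 (0.595 and 0.403 against 0.945 CPM) were lower there. The fibroblast list without COL1A2 summed to 9.43 and 9.48 against 10.5 CPM.

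The C1q chains themselves were barely expressed. C1QA had at most 16 counts and C1QC at most 22 in a library, with log2 changes of -1.04 (adjusted p = 0.231) and -2.31 (adjusted p = 0.0752), and C1QB had counts in 1 library. C4A and C4B, near-identical copies whose reads may be shared, had 117 to 186 and 111 to 162 control counts against 139 to 150 and 140 to 190 in siMCT4. Their log2 changes were -0.03 (95% interval -0.54 to 0.47) and 0.19 (-0.29 to 0.67), so neither passed.

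Of the terminal components C5 fell, and C8G and C9 did not pass. C5, the precursor of C5a, had 935, 811 and 822 control counts against 503, 484 and 605 in siMCT4, without overlap (log2 change -0.76, SE 0.113, adjusted p = 0.00142). C9, which forms the pore, had 21 to 38 control counts against 47 to 70 in siMCT4, a log2 change of 0.80 (adjusted p = 0.0953).

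Further receptors fell in 5 of 7 tested cases and rose in 0 in the reported fit. Of all genes tested, 20.8% were called lower and 20.6% higher. The member receptors C3AR1, which rose, and C5AR1 are not in this count. The macrophage marker sum, which includes ITGAM, was also lower in siMCT4, and its part in these falls was not tested. Most of that difference lay in CSF1R (1682 to 1757 CPM in controls, 883 to 979 in siMCT4) and LAPTM5 (2247 to 2376 and 1464 to 1492 CPM). PTPRC on the same list was higher in siMCT4 (224 to 234 against 177 to 184 CPM), and CD68 overlapped between groups. C5AR2, the second C5a receptor, stood at 5.91, 5.55 and 6.21 FPKM in controls and 1.60, 1.85 and 2.17 FPKM in siMCT4 (log2 change -1.76, SE 0.12, adjusted p = 3.24e-05). C5, C5AR1 and C5AR2 thus had negative log2 changes side by side with the positive ones of C3 and C3AR1, with the limits on C5AR1 given above. VSIG4, a macrophage receptor for C3 fragments that also inhibits the alternative pathway, stood at 22.4, 23.3 and 20.9 FPKM in controls and 8.99, 9.86 and 9.77 FPKM in siMCT4 (-1.32, SE 0.0653, adjusted p = 7.42e-06). Both groups of VSIG4 values were narrow and far apart.

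The integrin receptors for the C3 fragment iC3b are pairs of a shared beta chain, ITGB2, with ITGAM (complement receptor 3) or ITGAX (complement receptor 4). ITGB2 fell from 471, 507 and 487 FPKM in controls to 196, 178 and 260 FPKM in siMCT4 (log2 change -1.32, adjusted p = 0.000212). The gene is 61.4% GC, and the log2 ratios of siMCT4 libraries 1, 2 and 3 were -1.43, -1.57 and -1.01. With GC correction the log2 change of ITGB2 was -0.97 (adjusted p = 2.24e-05). The alpha chains differed far less. ITGAM had a log2 change of -0.17 (adjusted p = 0.0117) that lost its call in 9 of 19 alternatives, among them each fit that left out replicate 1 or 2 of either group (adjusted p between 0.0531 and 0.0911), and TPM, where it was 0.03 (limma, adjusted p = 0.561). For ITGAX the log2 change was 0.11, which did not pass (adjusted p = 0.0713). ITGAX did pass in several alternatives, among them upper quartile scaling, the stricter filter, log2(FPKM + 1) with limma, TPM and GC correction. CD93, a receptor once assigned to C1q, had 92, 69 and 55 control counts against 13, 7 and 0 in siMCT4 (log2 change -3.45, adjusted p = 0.0117, or 0.0512 without control replicate 1). Its log2 change was -4.40 without siMCT4 replicate 1 and -2.83 without siMCT4 replicate 3.

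Further regulators fell in 3 of 6 tested cases and rose in 1, beside 20.8% and 20.6% of all genes tested. That group holds CR1 and leaves out the members SERPING1, CD55 and CD59. CD46, the membrane cofactor for cleavage of C3b, fell beside CD55 but by less, from 12.0, 12.3 and 11.5 FPKM to 10.6, 10.8 and 10.7 FPKM (log2 change -0.26, SE 0.0396, adjusted p = 0.00152). On TPM CD46 did not pass (-0.06, adjusted p = 0.322). THBD, thrombomodulin, which promotes inactivation of C3b, fell from 49.8, 48.4 and 44.3 FPKM to 12.9, 13.7 and 18.0 FPKM (-1.78, SE 0.127, adjusted p = 3.99e-05). CLU, clusterin, a fluid-phase inhibitor of the membrane attack complex, fell by 0.69 (adjusted p = 0.000672).

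VTN, vitronectin, another fluid-phase inhibitor of that complex, was the further regulator that rose. It went from 4, 14 and 6 counts to 74, 142 and 118 (log2 change 3.69, SE 0.485, adjusted p = 0.0008). Without control replicate 2 the log2 change of VTN was 4.37. Its model overlaps that of SARM1 on the opposite strand by 3024 bases. The log2 change of SARM1 was 0.49 (adjusted p = 0.0248). The strand setting of the counting is not given in the sources used here, so reads within the overlap cannot be told apart. The same limit touches the stretches that C1S shares with LPCAT3 (30219 bases), PTX3 with VEPH1 (6784 bases), C5 with CNTRL (525 bases) and ITGB2 with ITGB2-AS1 (7823 bases). ITGB2-AS1 had 783 to 1636 counts beside 93410 to 261019 for ITGB2.

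**Figure D4:**
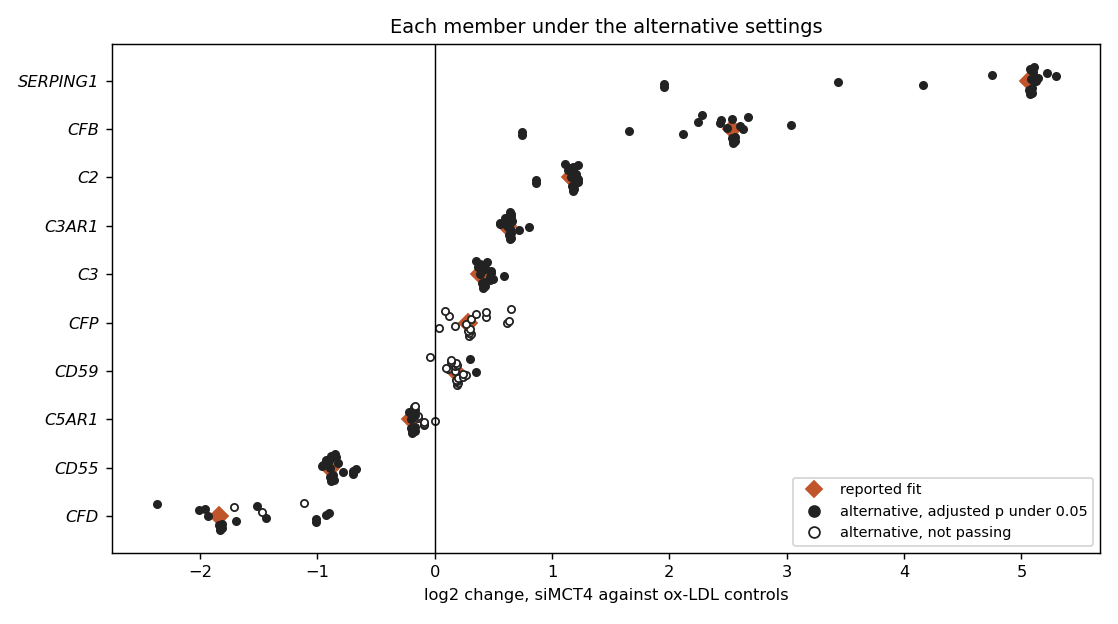
Log2 change of each member (x axis) in the reported fit (diamond) and in each alternative setting (circles, filled where the adjusted p is under 0.05). SERPING1, CFB, C2, C3AR1, C3 and CD55 are filled throughout; CFD, C5AR1 and CD59 have both filled and open circles, and CFP has open circles only.

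Over 19 alternatives, SERPING1, CFB, C2, C3AR1 and C3 were called higher and CD55 lower in each. The range of log2 changes was 0.86 to 1.22 for C2, 0.35 to 0.59 for C3, 0.56 to 0.80 for C3AR1 and -0.96 to -0.67 for CD55. For the scarce genes the range reached from 0.74 to 3.04 for CFB and from 1.95 to 5.29 for SERPING1, with the low ends on log2(FPKM + 1).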

How the data were processed

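Polyadenylated RNA of 6 THP-1 macrophage libraries was sequenced as paired ends with a dUTP strand-marking kit, per the labels. Trimming and alignment tools in the submitters' processing notes are cutadapt 1.9 and HISAT2 2.2.1, with build GRCh38. For the counter, its annotation and its strand setting: not given in the sources used here. The authors' table has, per the file headers, a raw count and an FPKM column per library. For 6908 genes with at least 1000 counts, the ratio of count to FPKM held across libraries within 0.0186 (log2), apart from a library-wide factor. Gene length itself and scarcer genes were not checked. Even counts made up 59.8% of counts from 2 to 41, so 2 counts may stand for 1 fragment.

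Counts were tested with edgeR 4.0.16 (R 4.3.3): TMM scaling, filterByExpr (smallest count 10, total 15), quasi-likelihood test by group, two-sided, Benjamini-Hochberg over all genes tested. Standard errors are the log2 change over the square root of F. GC content is the median over a gene's GENCODE 29 transcripts, known for 94.9% of genes, and its correction used loess offsets (span 0.3). Alternatives included DESeq2 1.42.0 and limma 3.58.1. The fits were tested on simulated data. Members and lists were chosen with earlier results of these data known. Of the further complement genes, the text names the called ones with at least 1 CPM in the higher group, at most 14; C1QA, C1QB, C1QC, C4A, C4B, C9, C8G, ITGAX, COLEC12, CR1 and MASP2 were named after their values were seen, as were genes overlapping a named one and COL1A2. The smallest group difference a member can show is limited by its counts, and intervals of scarce genes are wide accordingly.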

Additional observations from a re-analysis of the deposited data

How the results depend on the processing

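Of the members, 6 to 9 were called over the 19 alternatives, and of the further complement genes 12 to 18; leaving out one library at a time gave 7 to 9 and 12 to 18. Results that turned sign were CD59 in siMCT4 library 3 alone (-0.04) and ITGAM on TPM (0.03). On TPM the median of all genes was shifted by 0.138. The replicate numbers did not pair the libraries (correlations of same-numbered deviations -0.101, 0.0713 and -0.148, with number 2 alone matching its own best). With the numbers as a replicate block, 8 members and 14 further genes were called, all of them calls of the fit without it, and all-gene calls went from 4116 higher and 4144 lower to 3341 and 3580. The fits with siMCT4 library 3 as the sole siMCT4 library take their spread from the controls and assume that it varies as they do. Depth limits CFP, CFB, SERPING1 controls and the C1q chains, which rest on few counts.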

Other observations

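Several complement genes whose own values are not given above had few counts and uneven libraries. COLEC12, a scavenger collectin, had 4, 0 and 0 control counts against 108, 97 and 0 in siMCT4, where COL1A2 likewise had counts in libraries 1 and 2 only. CR1, the receptor for C3b and C4b, had 45, 32 and 37 control counts against 29, 66 and 54 in siMCT4 (log2 change 0.30, adjusted p = 0.529). MASP2, a protease of the lectin pathway, had 16, 14 and 18 control counts against 8, 12 and 41 in siMCT4, where library 3 stood apart from the others (0.24, adjusted p = 0.793).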
